A study of Mus musculus with 9 samples.

Results

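Malat1, Neat1, Meg3, Rian, Kcnq1ot1, Snhg11 and Miat are long noncoding RNAs (lncRNAs) known to be kept largely in the nucleus. They were taken by symbol from a table of 25579 gene symbols, and all 7 were found in it. All 7 also had at least 1 TPM (a transcript abundance corrected for length and for the library's total) in at least 3 libraries, as did 17102 genes in all. The set was put together with the levels of these RNAs in treated and homozygous libraries in view. Those levels are therefore given here as a description, with no test for any member in that comparison.

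Nuclear lncRNAs act as RNA molecules without being translated. Malat1 is one of the most abundant of them and gathers in nuclear speckles, bodies rich in splicing factors. Its genomic neighbour Neat1 is the scaffold around which paraspeckles form, bodies that hold RNA-binding proteins such as Sfpq and Nono. Meg3 and Rian are transcribed from the maternal chromosome of the imprinted Dlk1-Dio3 domain, and Kcnq1ot1 is the paternally transcribed antisense RNA that silences genes of the imprinted Kcnq1 domain in cis. Snhg11 is a host gene of small nucleolar RNAs (snoRNAs), and Miat, also called Gomafu, is a nuclear RNA known for its abundance in neurons. Meg3, Rian, Snhg11 and Miat are all known to be high in neurons, which in the cochlea are the spiral ganglion neurons.

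RNA came from the cochlear membranous labyrinth, the soft part of the hearing organ, of mice at postnatal day 28. The treated mice were homozygous for hMPZL2Q74X/Q74X, a humanized MPZL2 allele with the nonsense change c.220C>T, and had received AAV-ie-ABE8eWQ-SpRY:sgRNA3 through the round window membrane on postnatal day 2. That agent is an adeno-associated virus that delivers an adenine base editor, which changes A-T to G-C base pairs, together with a guide RNA. The homozygous mice carried the same allele without treatment, and the wild-type (WT) mice had unaltered Mpzl2. Each group had 3 libraries, assigned by sample title, since the genotype numbers in the labels rise by 1 with each sample of a group. The labels name no mice injected with a control vector or with vehicle, so an effect of the injection or the virus and an effect of the editing cannot be told apart. All 18 genes of a list for cochlear tissue, among them Coch, Otos and Myo7a, passed the filter on low values. In treated libraries 1 and 2, however, Tecta was at 0.0888 and 0.0617 TPM and Oc90 at 0.0431 and 0 TPM.

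Treated libraries 1 and 2 were close to the same. Among genes at 10 TPM or more, their median absolute log2 ratio was 0.0689, against 0.192 to 0.275 between homozygous libraries and 0.412 to 0.413 between either of them and treated library 3. They are counted as 1 sample through their mean, so the treated group has 2 samples. Whether they are 1 library present in both columns, or hold RNA pooled from several sources, was not tested and bears on every value of treated libraries 1 and 2. A fit without treated library 3, or with it alone, has 1 treated sample, and its spread comes from the homozygous libraries, with the lone sample assumed to vary as they do. Both held the female transcript Xist, at 124 and 129 TPM, together with the Y-linked Eif2s3y, at 43.1 and 41.2 TPM. Treated library 3 and homozygous library 1 had Xist at 171 and 162 TPM with Eif2s3y at 0 and 0.959 TPM, and homozygous libraries 2 and 3 had Eif2s3y at 123 and 101 TPM with Xist under 1 TPM. Treated libraries 1 and 2 also held transcripts of forebrain neurons, with values given below beside the neuronal lncRNAs. Mpzl2 itself averaged 17.5 ± 5.42 TPM in homozygous and 42.1 ± 7.84 TPM in WT libraries (SD, n = 3 each) in a smaller table of those groups. It had 5.64, 5.62 and 16.3 TPM in treated libraries 1 to 3, against 17.4, 24.01 and 13.1 TPM in homozygous libraries 1 to 3. TPM does not show which base the allele carries. How far reads of the humanized allele were assigned to mouse Mpzl2 was not tested. The depth behind each value is unknown, since TPM does not keep it.

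Promoter windows of 4 of the 7 genes are shown, those of Malat1 and Kcnq1ot1, which were lower in every treated than in every homozygous library, of Meg3, whose level varied most between libraries, and of Miat, which could be compared between homozygous and WT. The sequences are from RefSeq on build GRCm38.p6 and run from 250 bases before to 50 bases after the start of the gene, 5′ to 3′ on the strand of the gene. They lie at chr19:5802623-5802922 on the minus strand for Malat1, chr7:143296498-143296797 on the minus strand for Kcnq1ot1, chr12:109540746-109541045 on the plus strand for Meg3 and chr5:112228899-112229198 on the minus strand for Miat. Capitals mark matches to a motif on either strand.
Malat1: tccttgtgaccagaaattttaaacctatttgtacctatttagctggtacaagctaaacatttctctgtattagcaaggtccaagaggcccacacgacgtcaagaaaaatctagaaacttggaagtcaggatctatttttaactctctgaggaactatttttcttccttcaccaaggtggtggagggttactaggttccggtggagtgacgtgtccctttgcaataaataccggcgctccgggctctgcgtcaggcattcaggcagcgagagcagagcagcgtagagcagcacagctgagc
Kcnq1ot1: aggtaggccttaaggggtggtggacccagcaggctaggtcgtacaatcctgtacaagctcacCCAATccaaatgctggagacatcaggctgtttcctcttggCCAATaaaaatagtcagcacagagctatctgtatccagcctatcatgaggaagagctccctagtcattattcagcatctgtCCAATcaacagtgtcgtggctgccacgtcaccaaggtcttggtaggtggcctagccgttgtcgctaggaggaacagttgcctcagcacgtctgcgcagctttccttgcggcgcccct
Meg3: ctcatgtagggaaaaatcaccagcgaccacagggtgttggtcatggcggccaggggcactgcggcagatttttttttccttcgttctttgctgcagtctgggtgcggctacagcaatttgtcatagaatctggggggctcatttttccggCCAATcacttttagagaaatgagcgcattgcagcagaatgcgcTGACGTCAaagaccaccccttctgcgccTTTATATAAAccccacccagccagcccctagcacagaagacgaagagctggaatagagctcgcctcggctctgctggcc
Miat: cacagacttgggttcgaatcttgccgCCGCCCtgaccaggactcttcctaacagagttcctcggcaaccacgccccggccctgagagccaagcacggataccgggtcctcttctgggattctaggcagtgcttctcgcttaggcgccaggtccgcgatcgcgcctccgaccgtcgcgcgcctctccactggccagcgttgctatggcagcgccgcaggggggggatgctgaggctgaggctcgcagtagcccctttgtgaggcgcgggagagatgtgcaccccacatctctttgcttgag

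Motifs were searched on both strands in the windows of the 6 genes that had one, which leaves out Neat1. They were the CRE (TGACGTCA), the CCAAT box (CCAAT), the TATA box (TATAAA), the GC box (GGGCGG), the NRF1 motif (GCGCATGCG) and the core of the interferon-stimulated response element (GAAANNGAA). The window of Meg3 shown above held 1 CRE, 1 CCAAT box and 2 TATA matches that overlap each other on opposite strands. The CRE occurs in 1.79% of all 32851 windows, the CCAAT box in 37.4% and the TATA box in 13.6%. Kcnq1ot1 had 3 CCAAT boxes, and Miat had 1 GC box, which 35.7% of all windows hold. No match was found in the windows of Malat1, Snhg11 and Rian. The interferon core, in 8.56% of all windows, and the NRF1 motif, in 1.75%, were in no window of these 6 genes. CpG dinucleotides numbered 25 in Miat, 21 in Snhg11, 13 in Meg3, 10 in Malat1, 9 in Kcnq1ot1 and 0 in Rian, with a median of 7 over all windows. These are matches of letters and say nothing of binding.

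Malat1 had the largest difference of the 7. It had 9142, 9725 and 8821 TPM in treated libraries 1 to 3, against 25734, 22295 and 21924 TPM in homozygous libraries 1 to 3. The groups did not overlap, and the highest treated library, at 9725 TPM, was far below the lowest homozygous library, at 21924 TPM. The means were 9127 ± 433 TPM in treated and 23318 ± 2101 TPM in homozygous libraries (SD, n = 2 and n = 3), a ratio of 0.391 and a difference of -1.35 in log2(TPM + 1). Treated libraries 1 and 2 together differed from the homozygous mean by -1.30 and treated library 3 by -1.40, so the difference was of like size in both treated samples. By TPM, Malat1 ranked 3, 3 and 5 among all genes in treated libraries 1 to 3, against 2, 2 and 2 in homozygous libraries 1 to 3.

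Kcnq1ot1 was the only other member below all homozygous libraries in every treated library. It had 17.9, 17.2 and 12.4 TPM in treated libraries 1 to 3, against 22.3, 21.5 and 22.5 TPM in homozygous libraries 1 to 3. The homozygous libraries lay close together and treated library 3 was lowest. The means were 15.0 ± 3.604 TPM in treated and 22.1 ± 0.55 TPM in homozygous libraries (SD, n = 2 and n = 3), a log2 difference of -0.55. The difference was -0.32 in treated libraries 1 and 2 and -0.78 in treated library 3. Of all tested genes, 14.8% had every treated below every homozygous library, and since the set was chosen from these values nothing is read from the 2 of 7 members that did. Kcnq1ot1 was the least abundant of the 7, and its single annotated transcript of 93092 bases in GENCODE M21 overlaps Kcnq1 on the opposite strand. The library kit keeps strand, per the labels, but the sources used here do not state whether strand was used in quantification. Reads of Kcnq1 and Kcnq1ot1 may therefore not be fully separated.

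**Figure D1:**
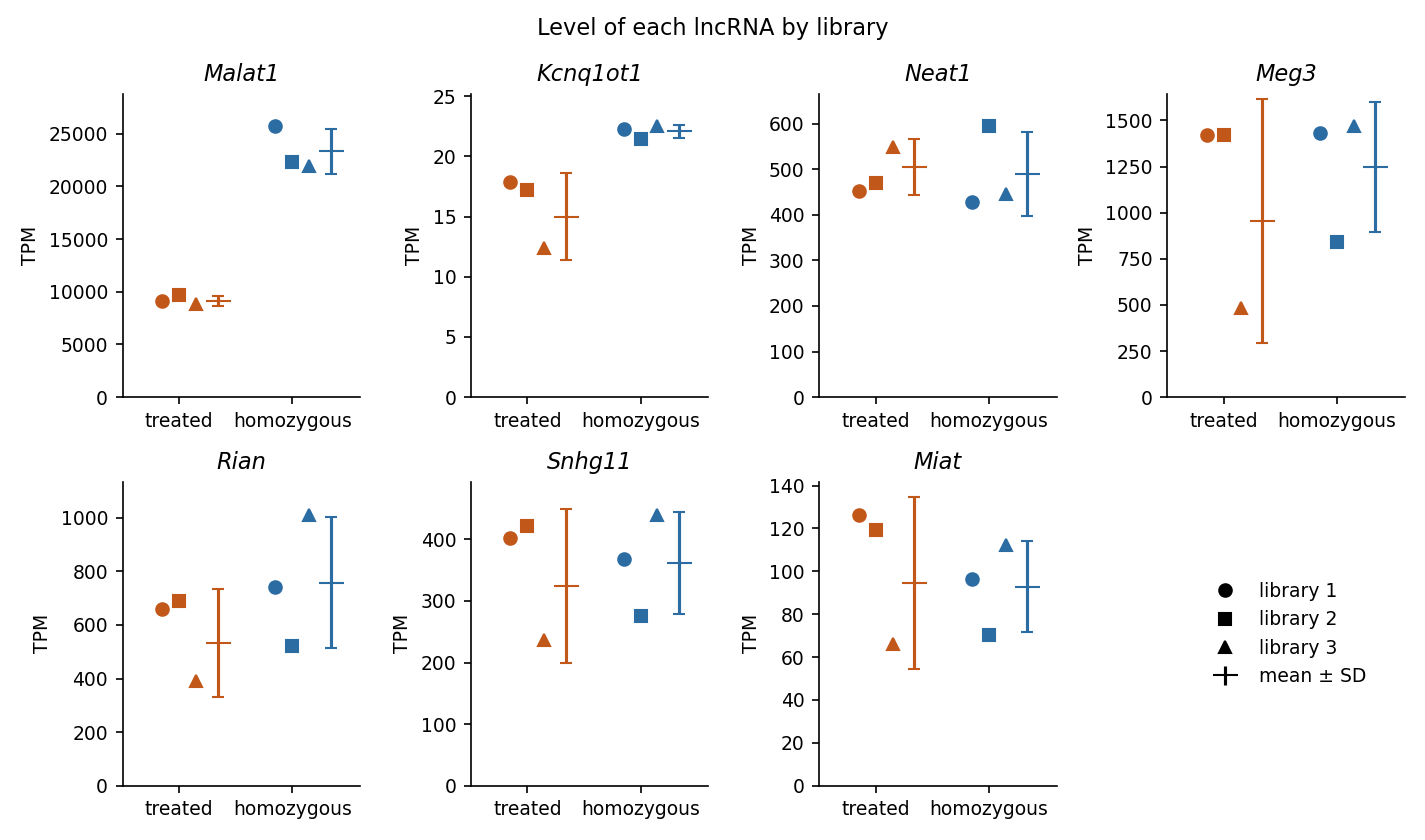
Level of each of the 7 lncRNAs in TPM (vertical axes, each from 0) in treated (left, orange) and homozygous (right, blue) libraries. Symbols mark libraries 1 to 3, and bars give mean ± SD with treated libraries 1 and 2 counted as 1 sample (n = 2 and n = 3). Malat1 and Kcnq1ot1 did not overlap between groups, and Meg3, Rian, Snhg11 and Miat were low in treated library 3 and homozygous library 2.

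The sum of all TPM is fixed, so a large change elsewhere moves every value, and transcripts that changed with treatment are given here beside the lower members. Among all tested genes, limma with Benjamini-Hochberg adjustment at 0.05 called 3.44% higher and 0.965% lower. The 13 mitochondrially encoded genes took 2.17, 2.22 and 6.16% of TPM in treated libraries 1 to 3, against 13.6, 10.7 and 13.4% in homozygous libraries 1 to 3. All 13 had a negative log2 fold change, and 3 of them were called lower. The count was 0 without any 1 of homozygous libraries 1, 2 and 3, and 12 without treated library 3. Without them in the total, the log2 difference of Malat1 was -1.48 and that of Kcnq1ot1 -0.68. Genes of the interferon response were called higher in 17 of 18 cases, with sums of 2976 to 3553 TPM in treated and 228 to 314 TPM in homozygous libraries. Macrophage genes were called higher in 8 of 12 cases, with sums of 799 to 949 TPM in treated and 140 to 236 TPM in homozygous libraries, and none of the 12 was at 0 in all libraries of a group. Lymphocyte genes were called higher in 8 of 12 cases, with sums of 108 to 186 TPM in treated and 5.65 to 20.1 TPM in homozygous libraries, and 2 of the 12 were at 0 in all homozygous libraries. With treated library 3 alone, 14 interferon, 3 macrophage and 5 lymphocyte genes were called higher and 1 mitochondrially encoded gene lower. Without homozygous library 1, 2 or 3 in turn, the counts higher were 11, 15 and 10 for interferon genes, 0, 5 and 1 for macrophage genes, and 2, 1 and 0 for lymphocyte genes. The part of these transcripts and their cells in the level of Malat1 and Kcnq1ot1 was not tested. In whole tissue, fewer cells of a type and less RNA per cell cannot be told apart.

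Scaling the libraries to the median ratio of all tested genes moved the median log2 fold change of those genes to 0.02, against 0.20 on TPM. On that scale, the log2 difference was -1.55 for Malat1, -0.74 for Kcnq1ot1, -0.74 for Meg3, -0.71 for Rian, -0.39 for Snhg11, -0.21 for Miat and -0.15 for Neat1. Malat1 stayed the member with the largest difference on both scales. Of 2044 other tested genes annotated as lncRNAs, 54.0% had a log2 fold change above 0, with a median of 0.07 on TPM.

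**Figure D2:**
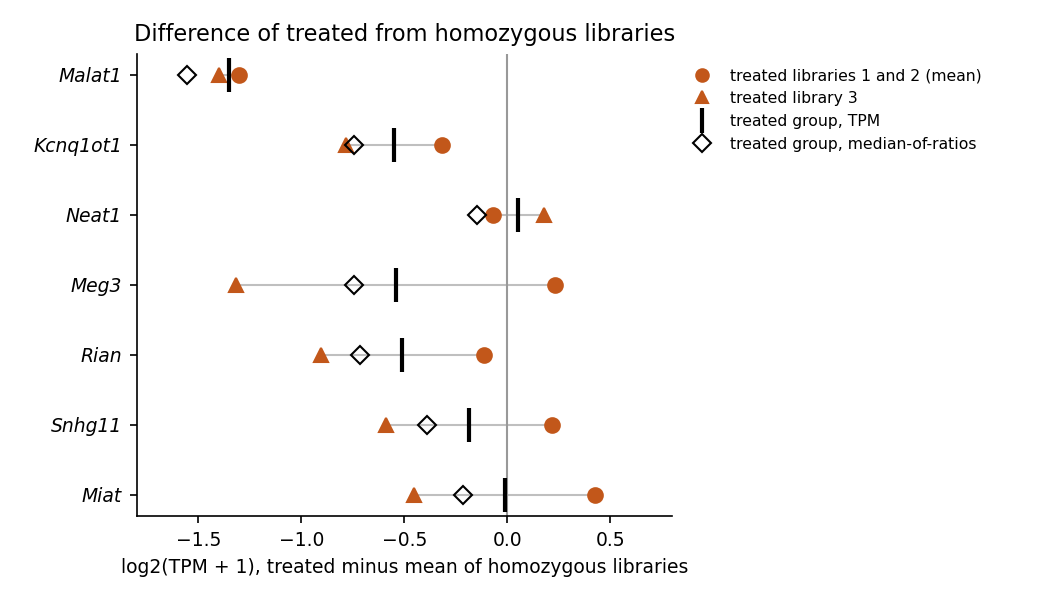
Difference in log2(TPM + 1) between treated libraries and the mean of the homozygous libraries for each lncRNA. Circles give treated libraries 1 and 2 together, triangles treated library 3, black bars the treated group on TPM and diamonds the treated group after median-of-ratios scaling. Malat1 differed by -1.30 and -1.40 in the 2 samples, while Meg3, Snhg11, Miat and Neat1 lay on both sides of 0.

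Neat1, the paraspeckle scaffold, was close to level between the groups. It had 452, 470 and 548 TPM in treated libraries 1 to 3, against 428, 595 and 446 TPM in homozygous libraries 1 to 3. The groups overlapped, with the highest and the lowest value both in homozygous libraries. The means were 505 ± 61.8 TPM in treated and 490 ± 91.5 TPM in homozygous libraries (SD, n = 2 and n = 3). The log2 difference was 0.05 on TPM and turned to -0.15 after median-of-ratios scaling, both smaller than the spread within groups. Malat1 and Neat1 are neighbours on chromosome 19. Malat1 TPM was 20.2, 20.7 and 16.1 times Neat1 TPM in treated libraries 1 to 3, against 60.2, 37.5 and 49.1 times in homozygous libraries 1 to 3.

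Genes for the proteins that build paraspeckles and speckles gave no call in the fit of 5 samples on TPM. Of 17 genes for paraspeckle proteins, limma called 0 higher and 0 lower, 5 had an unadjusted p under 0.05, and the median log2 fold change was -0.27 against 0.20 for all tested genes. The most abundant were Hnrnpk, a heterogeneous nuclear ribonucleoprotein, with a log2 fold change of -0.29 (adjusted p = 0.445), and Ewsr1, an RNA-binding protein of the FET family, with 0.10 on TPM and -0.10 after median-of-ratios scaling (adjusted p = 0.781 and 0.767). Of 17 genes for splicing factors of nuclear speckles, 0 were called higher and 0 lower, 6 had an unadjusted p under 0.05, and the median was -0.23. Srrm2, a core protein of speckles, had 1321, 1352 and 1123 TPM in treated libraries 1 to 3, against 878, 956 and 835 TPM in homozygous libraries 1 to 3 (limma adjusted p = 0.208). Srsf11, a splicing factor, had a log2 fold change of -0.04, which turned to 0.33 without treated library 3. Among 8 genes known for detained introns, which keep their transcripts in the nucleus, limma called 0 higher and 0 lower. Of these 8, 3 had an unadjusted p under 0.05, and the median was -0.14. After median-of-ratios scaling, 1 of these 8 and 1 of the 17 paraspeckle genes were called lower, and 0 of the speckle genes. Rsrp1 averaged 668 ± 22.7 TPM in treated and 379 ± 51.5 TPM in homozygous libraries (SD, n = 2 and n = 3), with a limma adjusted p of 0.0622.

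Meg3 and Rian, the maternal RNAs of the Dlk1-Dio3 domain, split the treated libraries. Meg3 had 1419, 1423 and 486 TPM in treated libraries 1 to 3, against 1432, 842 and 1469 TPM in homozygous libraries 1 to 3. Treated library 3 was lowest, homozygous library 2 next, and the remaining 4 libraries lay within 1419 to 1469 TPM. The means were 953 ± 661 TPM in treated and 1248 ± 352 TPM in homozygous libraries (SD, n = 2 and n = 3). The log2 difference of -0.54 was smaller than the pooled SD of 0.73 within groups, and it was 0.23 in treated libraries 1 and 2 but -1.32 in treated library 3.

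Rian, which carries 13 snoRNA genes and 4 miRNA genes within its bounds in GENCODE M21, had 661, 689 and 390 TPM in treated libraries 1 to 3, against 741, 521 and 1012 TPM in homozygous libraries 1 to 3. The groups overlapped, with treated library 3 lowest and homozygous library 3 highest. The means were 533 ± 202 TPM in treated and 758 ± 246 TPM in homozygous libraries (SD, n = 2 and n = 3), a log2 difference of -0.51 with a pooled SD of 0.51. Meg3 was 2.15, 2.06 and 1.24 times Rian in treated libraries 1 to 3, against 1.93, 1.61 and 1.45 times in homozygous libraries 1 to 3.

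Of 6 other genes of the domain, 3 passed the filter, 0 were called higher and 0 lower by limma, and 1 had an unadjusted p under 0.05. Mirg, the miRNA-bearing transcript downstream of Rian, had 69.9, 70.1 and 32.3 TPM in treated libraries 1 to 3, against 51.5, 35.8 and 76.3 TPM in homozygous libraries 1 to 3. It was low in the same libraries as Meg3, treated library 3 and homozygous library 2, and its log2 fold change of -0.13 turned to 0.42 without treated library 3. Begain, a synaptic protein gene next to the domain, had 37.6, 43.8 and 4.60 TPM in treated libraries 1 to 3, against 2.05, 1.96 and 2.37 TPM in homozygous libraries 1 to 3 (limma adjusted p = 0.138). Its high values were in treated libraries 1 and 2.

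Genes of the imprinted Kcnq1 domain gave no call either, and whether Kcnq1ot1 silences each of them in this tissue was not tested. Of 9 tested genes of the domain, limma called 0 higher and 0 lower, 4 had an unadjusted p under 0.05, and the median log2 fold change was 0.66. Cdkn1c, an imprinted inhibitor of the cell cycle, had 115, 97.5 and 233 TPM in treated libraries 1 to 3, against 137, 209 and 165 TPM in homozygous libraries 1 to 3. Both its lowest and its highest value were in treated libraries, and the log2 fold change of -0.09 became 0.47 in treated library 3 alone. Cd81, a tetraspanin gene of the domain, averaged 1009 ± 263 TPM in treated and 587 ± 93.5 TPM in homozygous libraries (SD, n = 2 and n = 3), with a limma adjusted p of 0.117. Kcnq1, the potassium channel gene that Kcnq1ot1 overlaps, had 50.9, 48.2 and 126 TPM in treated libraries 1 to 3, against 38.7, 92.9 and 29.2 TPM in homozygous libraries 1 to 3. It was highest where Kcnq1ot1 was lowest, in treated library 3, but homozygous library 2, second in Kcnq1, had Kcnq1ot1 near the other homozygous libraries.

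Snhg11 and Miat were also low in treated library 3 and homozygous library 2. Snhg11 hosts 2 snoRNA genes in GENCODE M21, which gives its gene type as protein-coding and not as a lncRNA. It had 403, 421 and 236 TPM in treated libraries 1 to 3, against 369, 275 and 440 TPM in homozygous libraries 1 to 3. The groups overlapped, and treated library 3 and homozygous library 2 were lowest. The means were 324 ± 125 TPM in treated and 361 ± 82.9 TPM in homozygous libraries (SD, n = 2 and n = 3), a log2 difference of -0.19 with a pooled SD of 0.43.

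Miat had 126, 119 and 66.3 TPM in treated libraries 1 to 3, against 96.2, 70.1 and 112 TPM in homozygous libraries 1 to 3. Treated libraries 1 and 2 were the highest and treated library 3 the lowest. The means were 94.6 ± 40.1 TPM in treated and 92.9 ± 21.3 TPM in homozygous libraries (SD, n = 2 and n = 3), a log2 difference of -0.01 on TPM and -0.21 after median-of-ratios scaling, with a pooled SD of 0.46 on TPM. Snhg11 was 3.18, 3.53 and 3.56 times Miat in treated libraries 1 to 3, against 3.84, 3.92 and 3.92 times in homozygous libraries 1 to 3. That ratio spanned a factor of 1.23 over the 6 libraries, where Snhg11 alone spanned 1.87 and Miat alone 1.91.

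The summed level of 14 pan-neuronal genes was low in the same libraries as these 4 lncRNAs. It was 4606, 4503 and 2281 TPM in treated libraries 1 to 3, against 5267, 3172 and 5684 TPM in homozygous libraries 1 to 3. None of the 14 was at 0 in all libraries of a group. Snap25 was the largest part of the sum, at 2048, 1870 and 973 TPM in treated libraries 1 to 3. Single genes of the list differed in pattern. Nefm had 243, 226 and 242 TPM in treated libraries 1 to 3, whereas Celf4 had 240, 226 and 8.32 TPM. Values scaled to the sum therefore depend on which genes are in it. Per 1000 TPM of that sum, Meg3 had 308, 316 and 213 TPM in treated libraries 1 to 3, against 272, 265 and 258 TPM in homozygous libraries 1 to 3. Scaled so, Meg3 spanned a factor of 1.48 over the 6 libraries, compared with 3.03 before scaling. Rian spanned 1.27 after scaling and 2.59 before, Snhg11 1.48 and 1.87, and Miat 1.59 and 1.91. Miat per 1000 TPM of pan-neuronal genes was 27.5, 26.5 and 29.1 TPM in treated libraries 1 to 3, against 18.3, 22.1 and 19.8 TPM in homozygous libraries 1 to 3, with no overlap between the groups. Snhg11 so scaled was 87.4, 93.6 and 103 TPM in treated libraries 1 to 3, against 70.0, 86.7 and 77.5 TPM in homozygous libraries 1 to 3, also without overlap. Its lowest treated value, 87.4, was next to its highest homozygous value, 86.7. In TPM, both Miat and Snhg11 overlapped between the groups. Of the 14 genes in the sum, 10 had a log2 fold change below 0 and 4 above, and limma called 3 lower. The share of all genes without overlap on this scale is not known, so nothing is read from it. Genes of other cell types also differed between these libraries. The 12 central glia genes summed to 2077, 2029 and 695 TPM in treated libraries 1 to 3, against 2049, 999 and 2504 TPM in homozygous libraries 1 to 3, and 4 of them were at 0 in treated library 3. Of the 11 tested, limma called 0 higher and 1 lower, Mog, a myelin gene of oligodendrocytes, and that call was lost without any 1 of homozygous libraries 1, 2 and 3. The 8 Schwann cell genes summed to 3627, 3544 and 3064 TPM in treated libraries 1 to 3, against 6152, 3767 and 7230 TPM in homozygous libraries 1 to 3, with 0 called higher, 0 lower and 2 at an unadjusted p under 0.05. The 14 bone and marrow genes summed to 882, 1122 and 809 TPM in treated libraries 1 to 3, against 818, 2714 and 402 TPM in homozygous libraries 1 to 3, so homozygous library 2, low in the 4 lncRNAs, was highest in these. Of the 13 tested, 0 were called higher and 1 lower, Ibsp, a protein of bone matrix, and that call was lost without homozygous library 1 or 3. These are descriptions of 6 libraries, and the share of glial, bone and neuronal RNA in the levels of the 4 lncRNAs was not tested.

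**Figure D3:**
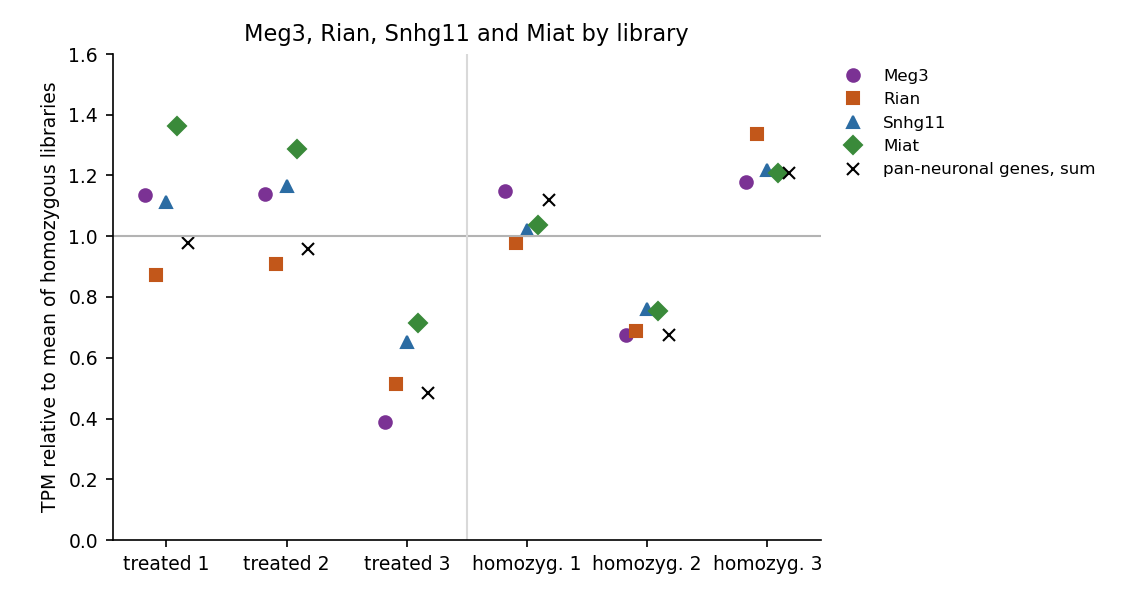
TPM of Meg3, Rian, Snhg11 and Miat and the summed TPM of 14 pan-neuronal genes in each library, relative to the mean of the homozygous libraries (vertical axis, 1 is that mean). Treated library 3 and homozygous library 2 were below 1 for all 4 lncRNAs and for the neuronal sum.

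Neuronal genes differed in how their levels in treated libraries compared with those in homozygous libraries. Of the 14 pan-neuronal genes, limma called 0 higher and 3 lower with treatment, namely Elavl4, Nefl and Nefh, of which Nefh is outside the rule for named genes and was named after its values were seen. Elavl4, a neuronal RNA-binding protein, averaged 61.3 ± 17.6 TPM in treated and 238 ± 81.2 TPM in homozygous libraries (SD, n = 2 and n = 3), a log2 fold change of -1.90 (SE 0.35, limma adjusted p = 0.0388). Nefl, the neurofilament light chain, had a log2 fold change of -1.41 (SE 0.28, adjusted p = 0.0464). Without treated library 3, the count was 3 higher and 0 lower, and with treated library 3 alone it was 0 and 0. For both Elavl4 and Nefl the call was lost in 3 of 6 fits that left out 1 library, those without homozygous library 1, homozygous library 3 or treated library 3.

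The 10 spiral ganglion neuron genes summed to 1059, 1047 and 1026 TPM in treated libraries 1 to 3, against 2375, 1497 and 2875 TPM in homozygous libraries 1 to 3. Limma called 0 of the 10 higher and 0 lower, and 5 had an unadjusted p under 0.05. The 14 forebrain projection neuron genes summed to 1627, 1611 and 331 TPM in treated libraries 1 to 3, against 287, 300 and 345 TPM in homozygous libraries 1 to 3. Camk2a, a kinase of forebrain excitatory neurons, had 745, 722 and 8.13 TPM in treated libraries 1 to 3, against 0.471, 0.503 and 0.554 TPM in homozygous libraries 1 to 3. Neurod6, a transcription factor of cortical neurons, had 6.25 and 6.004 TPM in treated libraries 1 and 2, and was listed at 0 in treated library 3 and in all homozygous libraries. Neurod2 and Tbr1 were also listed at 0 in treated library 3. Meg3, Rian, Snhg11 and Miat were higher in treated libraries 1 and 2, where Camk2a, Neurod6, Neurod2 and Tbr1 were found, than in treated library 3, and the part of forebrain RNA in their levels was not tested. Cux2, also of the list, was not low in treated library 3, at 82.8 TPM.

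All 7 lncRNAs summed to 1.23, 1.29 and 1.06% of TPM in treated libraries 1 to 3, against 2.89, 2.47 and 2.55% in homozygous libraries 1 to 3. Malat1 made up 74.8, 75.6 and 83.5% of the sum in treated libraries 1 to 3, against 89.3, 90.6 and 86.2% in homozygous libraries 1 to 3. Without Malat1, the other 6 summed to 0.309, 0.315 and 0.175% of TPM in treated libraries 1 to 3, against 0.310, 0.233 and 0.352% in homozygous libraries 1 to 3. The groups did not overlap in the sum of all 7 and overlapped once Malat1 was left out.

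Other nuclear and chromatin lncRNAs gave 1 call. Of 23 tested, limma called 1 higher and 0 lower, 5 had an unadjusted p under 0.05, 10 had a log2 fold change above 0 and the median was -0.08. The called gene was Crnde, a lncRNA known to be raised in many tumours, with 69.4, 65.5 and 69.1 TPM in treated libraries 1 to 3, against 21.7, 18.0 and 16.5 TPM in homozygous libraries 1 to 3. Every treated library was above every homozygous one, with a log2 fold change of 1.82 (SE 0.22, limma adjusted p = 0.016). The call was lost when any 1 of the homozygous libraries 1, 2 or 3 was left out, with log2 fold changes from 1.74 to 1.92 over all 6 such fits. With treated library 3 alone, 0 of the list were called higher and 0 lower, and without treated library 3, 4 were higher and 1 lower.

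Of 16 tested host genes of snoRNAs besides Snhg11, limma called 0 higher and 0 lower, 4 had an unadjusted p under 0.05, and the median log2 fold change was -0.29. Gas5, which is known to be regulated through nonsense-mediated decay, had 38.5, 49.6 and 78.2 TPM in treated libraries 1 to 3, against 181, 96.5 and 141 TPM in homozygous libraries 1 to 3. The groups did not overlap, but the log2 fold change of -1.19 did not pass (limma adjusted p = 0.0934). Snhg1 had 59.1, 49.1 and 156 TPM in treated libraries 1 to 3, against 255, 192 and 168 TPM in homozygous libraries 1 to 3 (log2 fold change -1.12, adjusted p = 0.165). Without treated library 3, 5 of the 16 were called lower and 0 higher.

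**Figure D4:**
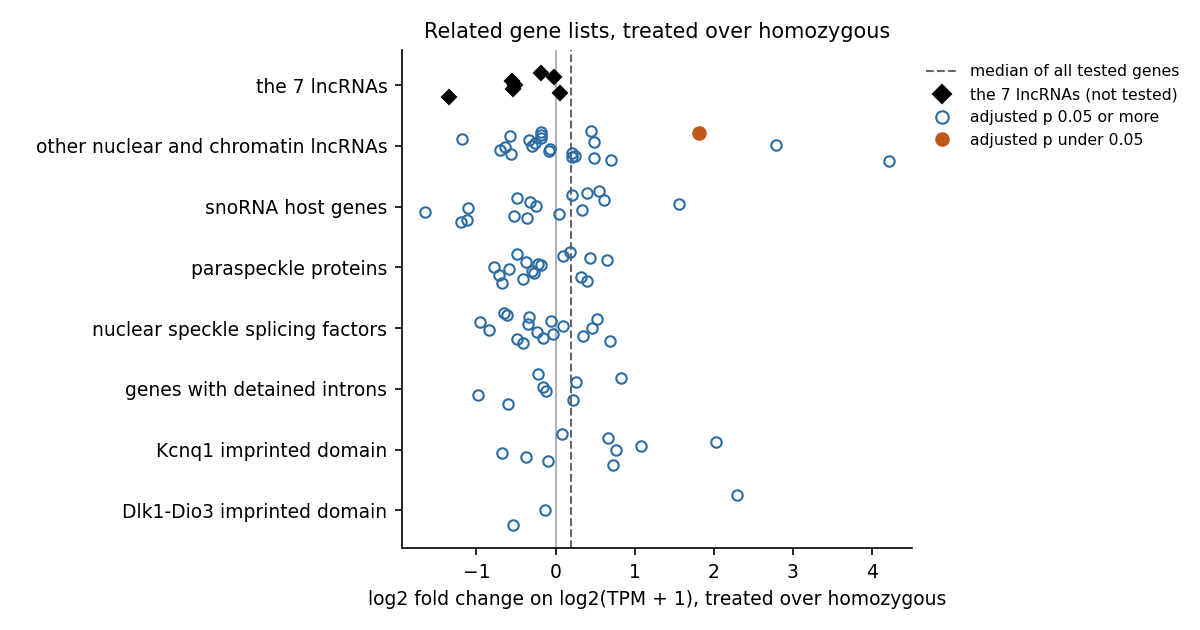
Log2 fold change of treated over homozygous libraries for the 7 lncRNAs (black, not tested) and for the tested genes of 7 related lists (open circles, adjusted p of 0.05 or more, filled circle, adjusted p under 0.05). The dashed line is the median of all tested genes, 0.20, and Crnde is the 1 filled circle.

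Miat alone of the 7 was in the smaller table, which holds 1410 symbols for homozygous and WT libraries. The rule for the members did not use WT levels, but the homozygous libraries are shared with the contrast it did use, and earlier results of these data were known. Miat had 72.7, 54.2 and 84.1 TPM in homozygous libraries 1 to 3, against 119, 93.9 and 101 TPM in WT libraries 1 to 3. Every homozygous library lay below every WT library. The means were 70.3 ± 15.1 TPM in homozygous and 104 ± 12.8 TPM in WT libraries (SD, n = 3 each). The log2 fold change was -0.58 (SE 0.18, limma adjusted p = 0.041 over 1348 genes). Among the tested genes there, 17.9% were called higher and 33.5% lower, counts of 241 and 451 that became 472 and 212 after median-of-ratios scaling. The sources used here do not state the authors' rule for choosing its rows, so this call is not independent evidence of a direction. After median-of-ratios scaling the log2 fold change was -0.44 and the adjusted p 0.0695. The call was lost in 5 of 6 fits that left out 1 library, all but the one without homozygous library 3, with adjusted p from 0.0289 to 0.102.

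The same homozygous libraries differed between the tables. Their Miat values in the smaller table were 0.756, 0.773 and 0.749 of those in the larger one for libraries 1 to 3, where the median over 1224 genes was 0.857, 0.858 and 0.855. Treated and WT libraries are therefore not compared. Malat1, Neat1, Meg3, Rian, Kcnq1ot1 and Snhg11 were not in the smaller table and their levels in WT were not analysed here.

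**Figure D5:**
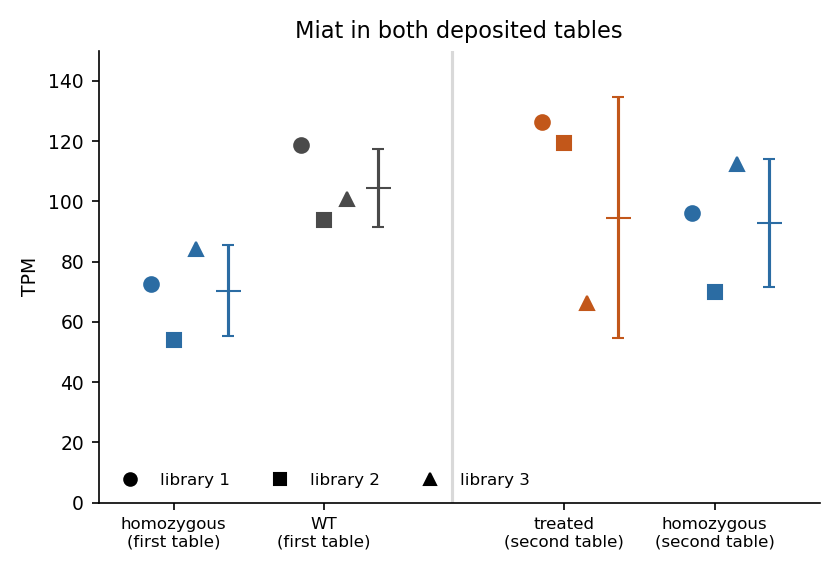
Miat in TPM (vertical axis from 0) in homozygous and WT libraries of the smaller table (left of the line) and in treated and homozygous libraries of the larger table (right). Symbols mark libraries 1 to 3 and bars give mean ± SD (n = 3, and n = 2 for treated). Homozygous libraries lay below WT libraries, and values are comparable only within a table.

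Neuronal genes of the smaller table are given beside Miat. Of 3 pan-neuronal genes in it, 0 were called higher and 2 lower in homozygous than in WT libraries. Stmn2, a regulator of axonal microtubules, averaged 64.3 ± 10.96 TPM in homozygous and 87.9 ± 3.40 TPM in WT libraries (SD, n = 3 each), with a log2 fold change of -0.46 and a limma adjusted p of 0.0424. Nefl averaged 399 ± 110 TPM in homozygous and 606 ± 82.4 TPM in WT libraries, with a log2 fold change of -0.64 and an adjusted p of 0.0477. The third, Nefh, had a log2 fold change of -0.60 and an adjusted p of 0.0524. The calls of Stmn2 and Nefl were each lost in 5 of 6 fits that left out 1 library, all but the one without homozygous library 3. Whether the lower Miat went with fewer neurons was not tested.

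Of the other nuclear lncRNAs, 4 were in the smaller table, of which 2 were called higher and 1 lower. H19, an imprinted RNA abundant before birth, had 11.6, 10.3 and 6.97 TPM in homozygous libraries 1 to 3, against 28.5, 22.3 and 34.3 TPM in WT libraries 1 to 3. Its log2 fold change was -1.47 (SE 0.24, limma adjusted p = 0.00719), and the call was kept in all 6 fits that left out 1 library. Lncpint, a lncRNA induced by p53, averaged 238 ± 30.9 TPM in homozygous and 146 ± 13.2 TPM in WT libraries (SD, n = 3 each), with a log2 fold change of 0.70 and an adjusted p of 0.015, and the call was lost without WT library 1 or 3. Its level in homozygous libraries 1 to 3 was 225, 273 and 216 TPM in the smaller table, but 126, 166 and 120 TPM in the larger one. The call therefore rests on values that the larger table does not repeat, and the reason was not tested. A330023F24Rik, a transcript that hosts a miRNA cluster, had a log2 fold change of 0.42 and an adjusted p of 0.0361, and the call was lost in 4 of 6 such fits, those without homozygous library 1 or any 1 of the WT libraries. Ftx, a neighbour of Xist, had a log2 fold change of 0.36 and an adjusted p of 0.063.

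The genes whose pattern was closest to each lncRNA were sought over the 5 samples among 14471 genes, by the root mean square difference in log2(TPM + 1) centred on the homozygous mean. For Malat1 they were Ndufb9, a subunit of respiratory complex I, with a difference of 0.0639, then Cetn3, a centrin, with 0.0760, and Srp19, a protein of the signal recognition particle, with 0.0876. Ndufb9 had 78.3, 79.4 and 75.7 TPM in treated libraries 1 to 3, against 223, 196 and 170 TPM in homozygous libraries 1 to 3. For Neat1 they were Crk at 0.0381, Megf10 at 0.0476 and Hipk1 at 0.0485. For Kcnq1ot1 they were Hmgb3 at 0.0419, Vps13a at 0.0423 and Glrx2 at 0.0431.

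For Meg3 the closest were Zfp108 at 0.0561, Cntn1, a neuronal adhesion protein, at 0.0611 and Dnajc6, the neuronal auxilin, at 0.0852. Cntn1 had 90.7, 87.8 and 31.7 TPM in treated libraries 1 to 3, against 90.5, 49.2 and 93.1 TPM in homozygous libraries 1 to 3. For Rian they were Nbea, known as neurobeachin, at 0.0648, Synj1, a phosphatase of synaptic vesicle recycling, at 0.0667, and Rgs6 at 0.0780. For Snhg11 they were Zfp385a at 0.0404, Dzank1 at 0.0483 and Cacna2d3, a calcium channel subunit, at 0.0525. For Miat they were Dnajc27 at 0.0603, Cnnm2 at 0.0635 and B3galt2 at 0.0635. Among the members themselves Snhg11 and Miat were nearest to each other, at 0.113, and Malat1 was far from all, its nearest being Kcnq1ot1 at 0.525. With 5 samples, nothing is read from the names.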

How the data were processed

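RNA of 9 cochlear samples was sequenced by stranded total RNA-seq, per the labels. The values are TPM as deposited by the authors, in 2 tables, one for homozygous and WT libraries and one for treated and homozygous libraries. Per the submitters' processing notes, kallisto 0.51.0, DESeq (no version given) and build GRCm39 were used, and the settings are not given in the sources used here. TPM keeps no depth, so no counting interval is given.

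Values of repeated symbols were summed, and genes at 1 TPM or more in at least 3 libraries of a table were tested with limma 3.58.1 in R 4.3.3 on log2(TPM + 1), with a mean per group, a mean-variance trend, two-sided tests and Benjamini-Hochberg adjustment over all tested genes. Fold changes on this scale are understated for low genes. Each table was fitted alone. Treated libraries 1 and 2 entered as their mean, and SDs are between samples. The procedure was tested on simulated data. The labels call the samples biological replicates but do not say which animals or how many cochleae each holds.

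The members and the 22 gene lists were chosen with earlier results of these data known. Named genes are the 7 members, up to 2 higher and 2 lower called genes of each list with the smallest p (or its 2 genes with the highest mean TPM where none was called), and the 3 genes closest in pattern to each member, and other genes named were picked after their values were seen. Transcript structure and neighbours come from GENCODE M21 and promoter windows from RefSeq, both on a build other than that of the quantification, so no other coordinates are given. Alternatives were pseudocounts of 0.1 and 0.5, filters, scalings, a replicate block, counting the treated libraries as 3 samples, treated library 3 alone, and leaving out each library. Results of some listed genes are not reported here.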

Additional observations from a re-analysis of the deposited data

How the results depend on the processing

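Malat1 kept a negative log2 difference between treated and homozygous libraries under every alternative run, at -1.55 with median-of-ratios scaling, -1.48 without mitochondrially encoded genes in the total and -1.39 to -1.28 when 1 library was left out. Kcnq1ot1 did so too, at -0.74 with median-of-ratios scaling, -0.78 with treated library 3 alone and -0.57 to -0.32 when 1 library was left out. Meg3 was -1.32 with treated library 3 alone and turned to 0.23 without treated library 3, with a range of -0.80 to 0.23 when 1 library was left out. Miat in homozygous against WT libraries was -0.44 with median-of-ratios scaling and -0.72 to -0.41 when 1 library was left out, and lost its call in 5 of those 6 fits. Counts of called genes moved most. In treated against homozygous libraries 589 were higher and 165 lower. Counting the treated libraries as 3 samples gave 2554 and 1009, treated library 3 alone 180 and 42, and no filter on low values 127 and 7. Leaving out 1 library gave 62 to 2249 higher and 1 to 735 lower. Over the gene lists 37 genes were higher and 10 lower, with 56 and 49 for 3 treated samples, 23 and 2 for treated library 3 alone, and 12 to 58 and 0 to 31 when 1 library was left out. In homozygous against WT libraries 241 were higher and 451 lower, with 472 and 212 after median-of-ratios scaling, and 26 to 227 and 77 to 384 when 1 library was left out. Other members lay on both sides of 0 when 1 library was left out of treated against homozygous, Snhg11 from -0.37 to 0.22, Miat from -0.20 to 0.43 and Neat1 from -0.07 to 0.20, while Rian stayed between -0.75 and -0.12. Sign changes among other named genes included Mirg (-0.39 to 0.42 when 1 library was left out), Srsf11 (-0.049 to 0.33) and Eif2s3y (-4.09 to 0.57), each positive without treated library 3, Cdkn1c at 0.47 and Myl1 at 0.39 with treated library 3 alone, and Ewsr1 at -0.10 with median-of-ratios scaling. Beyond the change of samples or tested genes itself, the cause was not tested.

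Replicate numbers are shared between groups. Deviations of samples with the same number had correlations of -0.15 to 0.03 in the larger and -0.14 to 0.05 in the smaller table. No shared deviation was seen in the smaller table. In the larger table the correlations cannot decide on pairing, since the treated libraries that entered as their mean are close to the same and deviate alike. Whether the numbers mark pairs is not known. A replicate block in treated against homozygous libraries was fitted with the treated libraries counted as 3 samples. It gave 1127 higher and 358 lower genes, against 2554 and 1009 for the same 3 samples without the block, and 25 lower genes in the lists, against 49. In homozygous against WT libraries the block gave 126 higher and 217 lower. Miat had an adjusted p of 0.0427 with the block. TPM gives no depth, so what depth limits cannot be stated.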

Other observations

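Other gene lists gave few calls between treated and homozygous libraries by limma at an adjusted p of 0.05. Of 18 cochlear tissue genes, Otog, a protein of the acellular membranes of the inner ear, was called higher and Otos, a protein of the perilymph, lower. The call of Otog was lost without homozygous library 1 or 2, and that of Otos without any 1 of homozygous libraries 1, 2 and 3. Of 5 tested genes for GABAergic and hippocampal or striatal neurons, 0 were called higher and 0 lower, with 1 at an unadjusted p under 0.05. The same counts held for 6 tested muscle genes.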
